A study of Mus musculus with 2 samples.

Results

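The imprinted *Dlk1*-*Dio3* locus of mouse chromosome 12 was followed in the mammary gland at puberty and in the virgin adult. Fibroblasts and cells with pericyte or smooth muscle markers were read out. The locus is represented here by 7 of the 33696 genes counted in each library, of which 3 encode proteins (*Dlk1*, *Rtl1* and *Dio3*) and 4 are noncoding RNAs (*Meg3*, *Rian*, *B830012L14Rik* and *Mirg*). The genes were selected by their position in the locus and on their measured difference between these same libraries, so the values are a description and carry no test. Single-cell RNA sequencing (scRNA-seq) covered 1 pubertal library (4 weeks of age) and 1 adult library (9 weeks) of female wildtype C57BL/6 mice. The labels give 2 females per condition and do not say whether a library pools them. Stroma had been sorted as lineage-negative and CD24-negative cells, which depletes blood, endothelial and epithelial cells. Both libraries carry the replicate number 2. As there was 1 library per stage, the spread between mice is unknown, and stage and library cannot be told apart.

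Imprinted genes are expressed from 1 parental chromosome. On the paternal chromosome the locus expresses the protein-coding genes: *Dlk1*, a transmembrane and shed EGF-repeat protein that restrains adipocyte differentiation, *Rtl1*, a retrotransposon-derived gene needed in the placenta, and *Dio3*, the deiodinase that inactivates thyroid hormone. On the maternal chromosome it expresses noncoding RNAs that start at *Meg3* and continue through *Rian*, which hosts small nucleolar RNAs, and *Mirg*, which hosts microRNAs. A differentially methylated region between *Dlk1* and *Meg3* sets this choice. Allele of origin, methylation and microRNAs were not measured by these libraries.

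In GENCODE M21 (GRCm38), *Dlk1* lies at chr12:109452823-109463336, *Meg3* at chr12:109541001-109571726, *Rian* at chr12:109603940-109661716, *B830012L14Rik* at chr12:109695586-109702587, *Mirg* at chr12:109729764-109749460 and *Dio3* at chr12:110279068-110281097, all on the plus strand. *Rtl1*, at chr12:109589193-109600330, is on the minus strand between *Meg3* and *Rian*. From the *Meg3* start to the *Mirg* end the noncoding stretch spans 208 kb and holds 57 microRNA hairpins in RefSeq, of which 14 lie within *Mirg* and 23 between *B830012L14Rik* and *Mirg*.

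The promoter windows of *Meg3* (chr12:109540746-109541045) and *Dlk1* (from chr12:109452573) are shown because these genes head the noncoding and the coding side of the locus (RefSeq, GRCm38.p6, plus strand; 250 bases before the start, and for *Meg3* the first 50 bases after it). Capitals mark matches to the cAMP response element TGACGTCA, to CCAAT and to TATAAA, searched on both strands.
Meg3: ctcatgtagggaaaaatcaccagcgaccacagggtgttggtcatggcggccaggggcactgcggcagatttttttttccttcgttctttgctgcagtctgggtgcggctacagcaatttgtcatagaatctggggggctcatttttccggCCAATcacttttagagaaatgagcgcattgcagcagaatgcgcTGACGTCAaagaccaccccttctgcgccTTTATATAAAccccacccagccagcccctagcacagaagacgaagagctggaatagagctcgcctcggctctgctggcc
Dlk1: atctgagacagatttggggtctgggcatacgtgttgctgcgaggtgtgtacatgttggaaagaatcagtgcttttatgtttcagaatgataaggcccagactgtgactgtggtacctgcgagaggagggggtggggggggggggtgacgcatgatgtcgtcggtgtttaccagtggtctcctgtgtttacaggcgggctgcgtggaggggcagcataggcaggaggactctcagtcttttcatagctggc
The *Meg3* window held 1 match to the cAMP response element, 1 to CCAAT and 2 overlapping matches to TATAAA on opposite strands, and the *Dlk1* window held none of these letters. Of 32851 promoter windows of the same length, 1.79% held the first motif, 37.4% the second and 13.6% the third. A second RefSeq *Meg3* window (chr12:109545148-109545447) held none of them, and the windows of *Rian* and *Mirg* lacked the first motif and TATAAA. On the coding side, the *Dio3* window held 2 matches to CCAAT and 1 to TATAAA. A match is a description of letters and not of a bound site.

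Opposite *Rtl1*, on the strand of *Meg3*, RefSeq places 6 microRNA hairpins with 11 mature sequences and 11 distinct seeds. The 4 mature sequences below are shown because transcription of their strand runs through *Rtl1*: whether the counting used strand is not given in the sources used here, so *Rtl1* counts may hold reads of either strand. Capitals mark the seed, bases 2 to 8.
mmu-miR-431-5p: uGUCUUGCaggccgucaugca
mmu-miR-433-3p: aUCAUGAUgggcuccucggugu
mmu-miR-127-3p: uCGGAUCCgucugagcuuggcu
mmu-miR-136-5p: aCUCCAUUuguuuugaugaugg

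After filtering (at least 500 genes and at most 10% mitochondrial unique molecular identifiers, UMIs), 21534 pubertal and 22972 adult cells remained. *Pdgfra*+ cells, with at least 1 UMI of this fibroblast receptor, came to 18878 and 20999, with median depths of 12187 and 11265 UMIs. They carried all 6 fibroblast markers, which summed to 32284 and 27168 CPM (UMIs of a gene per 1000000 UMIs of the summed cells), whereas the 7 pericyte and smooth muscle markers summed to 71.7 and 45.5 CPM. The 5 subsets read out within them followed marker rules and are not clusters, and 30.7% of pubertal and 35.5% of adult *Pdgfra*+ cells met more than 1 rule. *Pi16*+*Dpp4*+ cells, which carry markers of mesenchymal progenitors, were 74.1% and 42.2% of them, and *Crabp1*+ cells 1.53% and 12.7%. The libraries shared 145 barcodes, 0.669% of the pubertal and 0.625% of the adult ones.

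All 4 noncoding RNAs were lower in adult than in pubertal *Pdgfra*+ cells, and the ratio was lower for the 3 RNAs downstream of *Meg3* than for *Meg3* itself. *Meg3*, a long noncoding RNA known as a growth suppressor, stood at 1609.8 CPM at puberty (95% interval for counting error 1605 to 1615). In the adult it stood at 815 CPM (812 to 819), and the ratio of adult to puberty was 0.507 (0.504 to 0.509). *Rian* stood at 1001 CPM (997 to 1005) before and 336 CPM (334 to 339) after, for a ratio of 0.336 (0.333 to 0.339). *B830012L14Rik*, an RNA between *Rian* and *Mirg*, had 339 CPM (337 to 342) at puberty but 50.3 CPM (49.4 to 51.2) in the adult, and its ratio was the lowest, 0.148 (0.145 to 0.151). *Mirg* had 51.2 CPM (50.3 to 52.1) and then 11.7 CPM (11.3 to 12.1), and its ratio was 0.228 (0.219 to 0.238). The median gene was 0.17 higher in the adult on the log2 scale, and relative to it *Meg3* was 2.23-fold, *Rian* 3.35-fold, *Mirg* 4.94-fold and *B830012L14Rik* 7.61-fold lower.

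The protein-coding genes were sparse. *Dlk1* had 1414 pubertal UMIs, 5.97 CPM (5.67 to 6.29), and 828 adult UMIs, 3.34 CPM (3.12 to 3.58), a ratio of 0.560 (0.513 to 0.610). *Rtl1* had 953 UMIs, 4.03 CPM (3.77 to 4.29), and 456 UMIs, 1.84 CPM (1.68 to 2.02), a ratio of 0.457 (0.408 to 0.512). *Dio3* had 50 and 39 UMIs, a ratio of 0.746 whose interval (0.478 to 1.16) spans no difference. With the adult cells weighted to the pubertal mix of the 5 subset rules, a choice made after the data were seen, the *Dio3* ratio was 0.361. *Dio3os*, the RNA on the opposite strand beside *Dio3*, had 56 and 81 UMIs, a ratio of 1.38 (0.972 to 1.98). Of the 6 genes with at least 100 UMIs over both libraries, *Rian*, *B830012L14Rik*, *Mirg* and *Rtl1* were at least 2-fold lower in the adult, beside 4.05% of all 16488 genes with that many UMIs. The selection used this contrast, so nothing is read from that count. *Meg3* lay just short of 2-fold. The place of *Rtl1* in that count depended on the mix of subsets: its ratio was 0.612 with equal weight for the 5 subsets and 0.573 with the pubertal mix, where *Dlk1* was at least 2-fold lower instead.

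**Figure D1:**
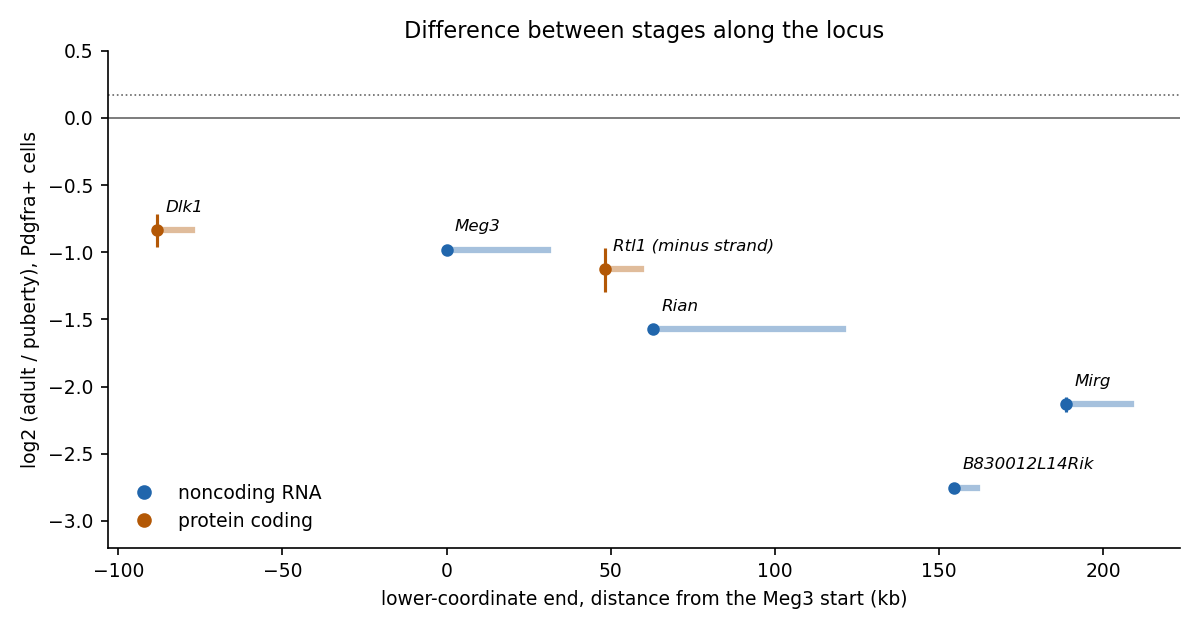
Adult over puberty ratio (log2) in *Pdgfra*+ cells against distance from the *Meg3* start in kb, with 95% counting intervals and each gene's extent as a pale line; the dotted line is the median gene. *Dlk1*, *Meg3* and *Rtl1* sit between 0.457 and 0.560 as ratios, and *Rian*, *Mirg* and *B830012L14Rik*, farther along, at 0.336, 0.228 and 0.148; *Dio3* is not drawn.

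The mixture of locus RNAs also differed between the libraries. For every 100 *Meg3* UMIs, pubertal *Pdgfra*+ cells held 62.2 *Rian* UMIs (61.8 to 62.5) and adult cells 41.2 (40.9 to 41.6). For *B830012L14Rik* the values were 21.1 (20.9 to 21.2) and 6.16 (6.05 to 6.28), and for *Mirg* 3.18 (3.12 to 3.24) and 1.43 (1.38 to 1.49). *Meg3* made up 53.6% of the noncoding UMIs at puberty and 67.2% in the adult. This shift was seen in every subset: *B830012L14Rik* per 100 *Meg3* UMIs lay between 19.2 (*Crabp1*) and 21.8 (*Thbs4* or *Bmp5*) at puberty and between 5.39 (*Crabp1*) and 7.68 (*Fabp4*) in the adult. *Dlk1* per 100 *Meg3* UMIs was 0.371 (0.352 to 0.391) and 0.410 (0.383 to 0.439) over all *Pdgfra*+ cells, but the subsets differed in direction. It was lower in the adult in *Thbs4* or *Bmp5* cells (3.54 and 1.48), *Fabp4* cells (0.529 and 0.110) and *Crabp1*+ cells (0.920 and 0.423). In *Pi16*+*Dpp4*+ cells it was higher (0.184 and 0.237), and in *Gdf10* or *Fmo2* cells the intervals of 0.391 (0.358 to 0.426) and 0.430 (0.387 to 0.476) overlapped. UMIs were not scaled by transcript length, so these are ratios of counts and not of molecules of full-length RNA.

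The noncoding RNAs were lower in the adult at each sequencing depth. Among *Pdgfra*+ cells split at 5000, 10000, 15000 and 25000 UMIs, the ratio lay between 0.409 and 0.562 for *Meg3*, 0.265 and 0.408 for *Rian*, 0.123 and 0.174 for *B830012L14Rik* and 0.221 and 0.272 for *Mirg*. The *Dlk1* ratio moved more with depth, from 0.286 (0.174 to 0.464) in cells under 5000 UMIs to 0.990 (0.692 to 1.42) in the 383 pubertal and 520 adult cells with 25000 UMIs or more. Over the same bins *Malat1*, an abundant nuclear RNA, was higher in the adult, by 1.93-fold in the shallowest cells and 1.16-fold in the 3 deepest bins. The part of RNA quality in these values was not tested.

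Each noncoding RNA was lower in the adult in all 5 *Pdgfra*+ subsets, and within both libraries the *Pi16*+*Dpp4*+ cells had the highest level. There *Meg3* had 1824 CPM (1818 to 1830) at puberty, 1129 CPM (1123 to 1135) later, and so a ratio of 0.619 (0.615 to 0.623). Their level was 2.03-fold (2.01 to 2.05) that of the other *Pdgfra*+ cells at puberty and 2.19-fold (2.17 to 2.21) in the adult, and for *Rian* 2.44-fold (2.41 to 2.47) and 2.29-fold (2.26 to 2.33). The next highest *Meg3* level was in cells with *Thbs4* or *Bmp5*, which mark the cluster that the study annotates as lobular-like. It was 1569 CPM (1547 to 1592) at puberty and 802 CPM (794 to 811) in the adult, with a ratio of 0.511 (0.502 to 0.521). Cells with *Gdf10* or *Fmo2*, the adipogenesis-regulatory markers, followed at 1356 CPM (1349 to 1363) and 689 CPM (684 to 694), with a ratio of 0.508 (0.504 to 0.512). *Crabp1*+ cells had 1180 CPM (1147 to 1213) and 575 CPM (567 to 583), with a ratio of 0.487 (0.472 to 0.503). Cells with at least 2 *Fabp4* UMIs, a marker of preadipocytes, had 970 CPM (958 to 982) and 605 CPM (597 to 613), with a ratio of 0.623 (0.612 to 0.635). The order of these levels was the same in both libraries except that *Crabp1*+ and *Fabp4* cells changed places, and no neighbours in the order had overlapping counting intervals. The lower part of the order depended on cells that met more than 1 rule. In cells meeting 1 rule only, *Meg3* was at 774 CPM at puberty and 431 CPM in the adult with *Gdf10* or *Fmo2*. It was at 886 and 421 CPM with *Crabp1*, and at 781 and 519 CPM with *Fabp4*. Adult *B830012L14Rik* was then at 76.6 CPM with *Thbs4* or *Bmp5* and 74.2 CPM with *Pi16* and *Dpp4*.

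*B830012L14Rik* had the lowest ratio of the noncoding RNAs in each subset, from 0.137 (0.125 to 0.150) in *Crabp1*+ cells to 0.241 (0.228 to 0.255) in *Fabp4* cells. *Mirg* ratios ran from 0.206 (0.170 to 0.2504) to 0.281 (0.246 to 0.321) and *Rian* ratios from 0.343 (0.339 to 0.347) in *Gdf10* or *Fmo2* cells to 0.508 (0.495 to 0.521) in *Fabp4* cells. Members at least 2-fold lower in the adult numbered 3 of 6 with enough UMIs in *Pi16*+*Dpp4*+ cells (3.04% of all genes tested there), 4 of 6 in *Gdf10* or *Fmo2* cells (4%), 4 of 6 in *Thbs4* or *Bmp5* cells (2.71%), 3 of 5 in *Fabp4* cells (2.99%) and 5 of 5 in *Crabp1*+ cells (2.58%). The same contrast had chosen the genes, so these counts describe and support nothing. Each cell can count in several subsets, so they are not independent replicates of the difference.

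**Figure D2:**
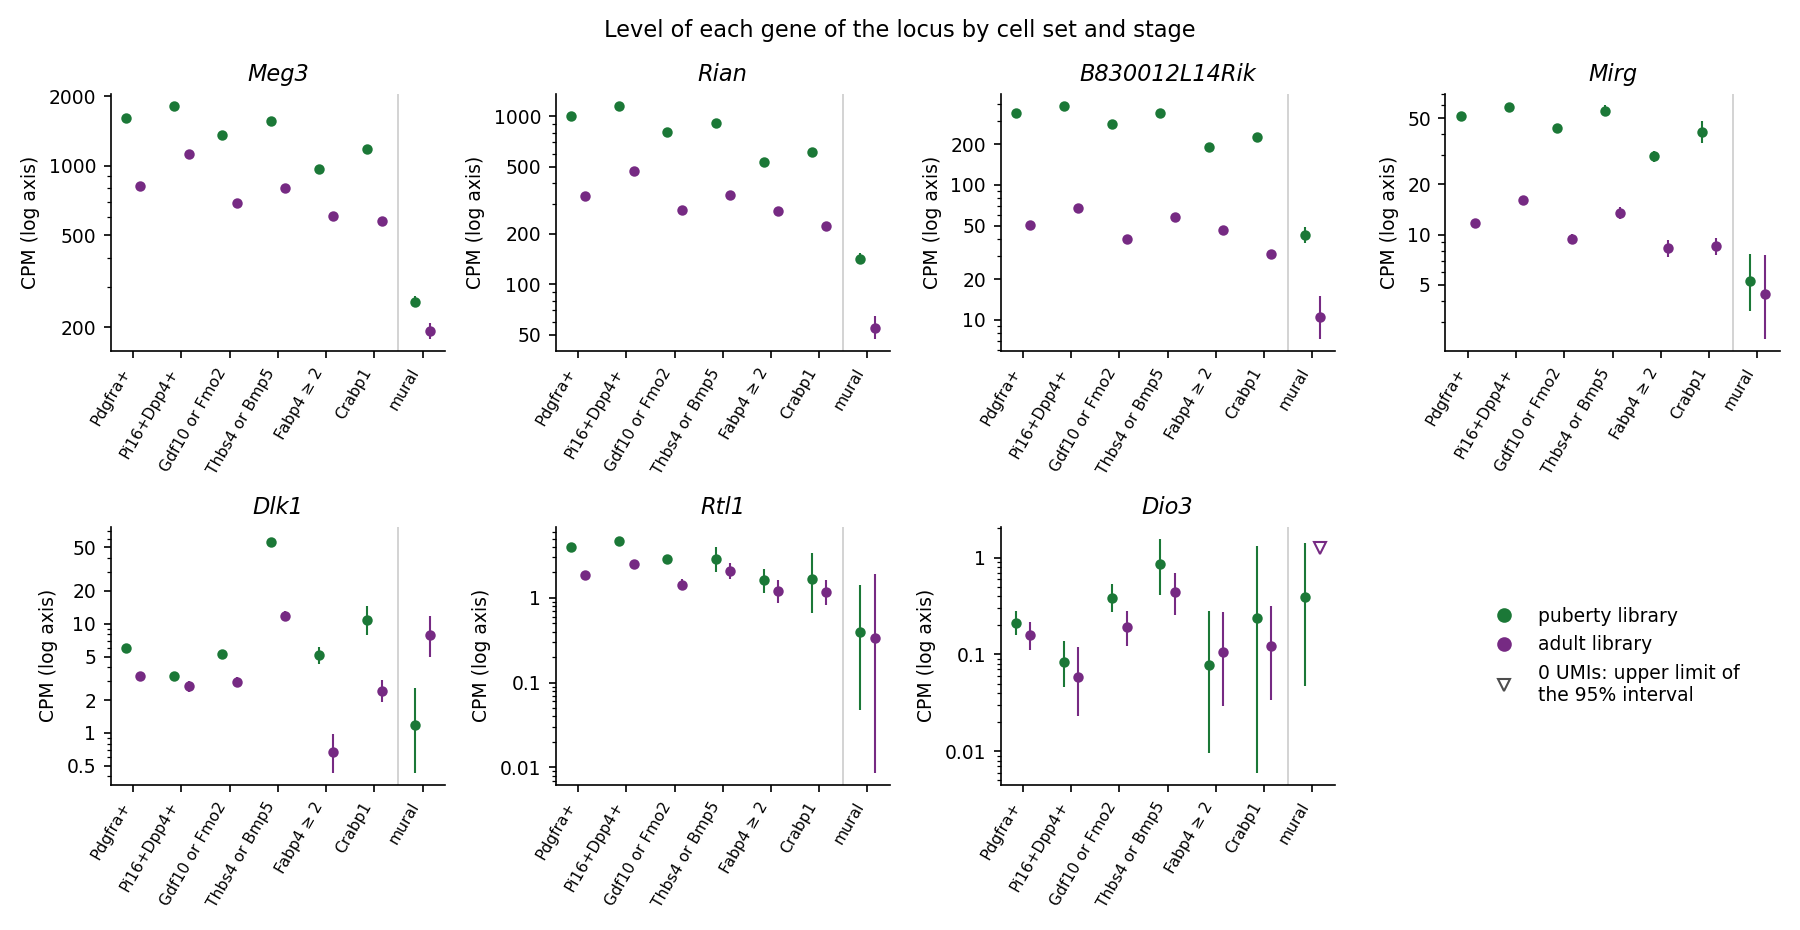
CPM of each gene (log axis, a scale of its own per panel) by cell set, green for puberty and purple for the adult, with 95% counting intervals. The noncoding RNAs are highest in *Pi16*+*Dpp4*+ cells and lower in the adult in all *Pdgfra*+ sets, whereas *Dlk1* is highest in *Thbs4* or *Bmp5* cells, at 55.6 and 11.9 CPM.

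*Dlk1* followed another pattern across the subsets. The study reports *Dlk1* expression in minor clusters other than its lobular-like one, and these were not matched to the subsets here. In *Thbs4* or *Bmp5* cells it reached 55.6 CPM (51.4 to 60.01) at puberty, 16.4-fold (14.8 to 18.3) the level of the other *Pdgfra*+ cells, and 11.9 CPM (10.8 to 12.98) in the adult, 6.75-fold (5.87 to 7.77). At least 2-fold higher levels there were shown by 5.62% of all genes at puberty and 2.96% in the adult, and of the 6 members with enough UMIs by *Dlk1* alone. *Dio3*, under that number of UMIs, was also higher there, by 4.79-fold (2.13 to 9.74) on 10 pubertal and 4.13-fold (2.06 to 8.15) on 17 adult UMIs. *Pi16*+*Dpp4*+ cells, the highest for noncoding RNA, had 0.229-fold (0.205 to 0.254) the *Dlk1* level of the other *Pdgfra*+ cells at puberty and 0.670-fold (0.581 to 0.772) in the adult. *Rtl1* went with the noncoding RNAs instead: it was 2.49-fold (2.02 to 3.08) and 2.09-fold (1.72 to 2.56) higher in *Pi16*+*Dpp4*+ than in other *Pdgfra*+ cells. *Dio3* was 0.129-fold (0.0655 to 0.243) and 0.229-fold (0.0853 to 0.528) there, on 15 pubertal and 7 adult UMIs in that subset. In *Gdf10* or *Fmo2* cells it was 4.41-fold (2.26 to 9.27) the level of other *Pdgfra*+ cells at puberty and 1.54-fold (0.777 to 3.16) in the adult.

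The adult *Dlk1* level was lower in each subset, but by unequal amounts. The ratio was 0.797 (0.694 to 0.913) in *Pi16*+*Dpp4*+ cells and 0.559 (0.488 to 0.639) in *Gdf10* or *Fmo2* cells. In *Thbs4* or *Bmp5* cells it was 0.213 (0.189 to 0.241), in *Crabp1*+ cells 0.224 (0.154 to 0.330) and in *Fabp4* cells 0.130 (0.0813 to 0.201), on 131 pubertal and 25 adult UMIs. *Thbs4* or *Bmp5* cells made up 4.91% of pubertal and 14.8% of adult *Pdgfra*+ cells, and with each subset given equal weight the *Dlk1* ratio was 0.257 in place of 0.560. For *Meg3* the equal-weight ratio was 0.551. *Rtl1* ratios over the subsets with at least 100 UMIs were 0.538 (0.470 to 0.614) in *Pi16*+*Dpp4*+, 0.496 (0.409 to 0.599) in *Gdf10* or *Fmo2* and 0.718 (0.475 to 1.11) in *Thbs4* or *Bmp5* cells.

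**Figure D3:**
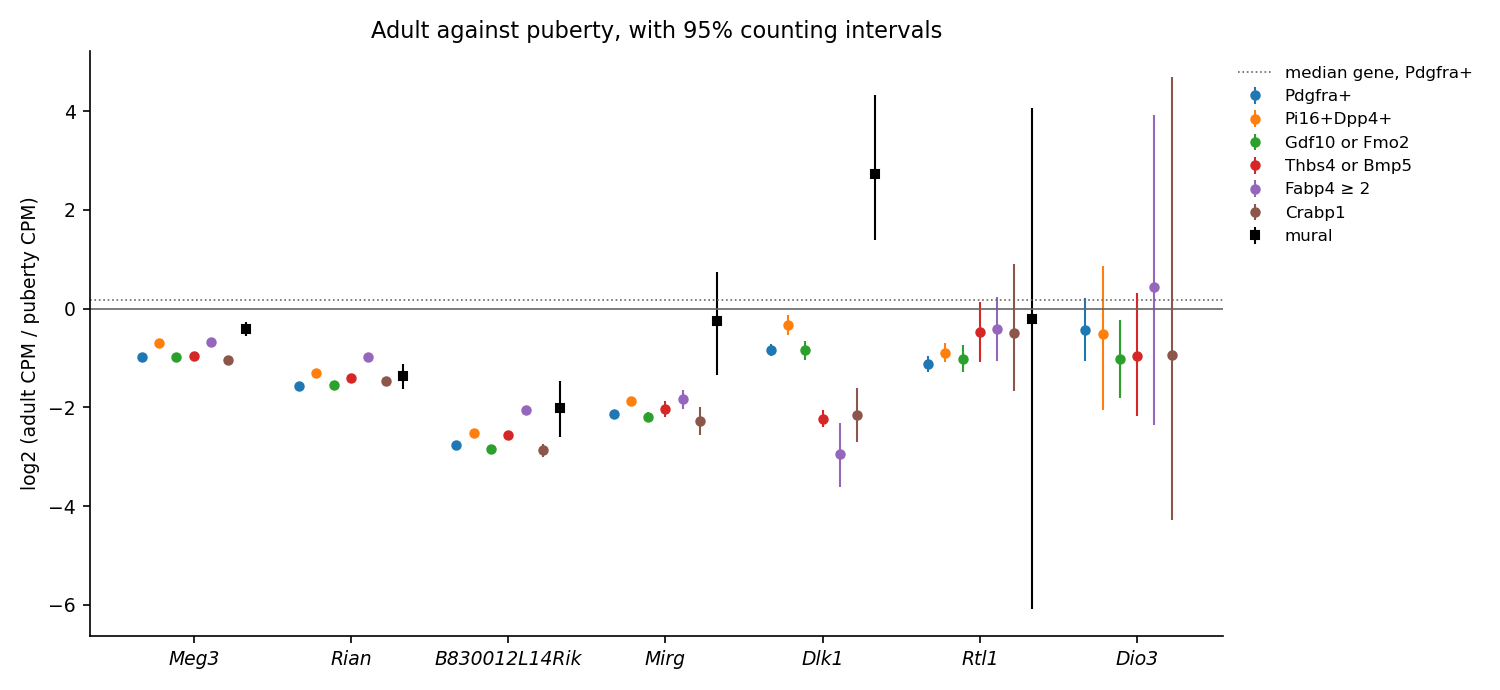
Adult over puberty ratio on the log2 scale for each gene in each cell set, with 95% counting intervals; the dotted line marks the median gene in *Pdgfra*+ cells, and ratios with a count of 0 are not drawn. *Dlk1* is lower in the adult in all 5 *Pdgfra*+ subsets and higher in mural cells (black squares), where the ratio is 6.66 on 6 and 23 UMIs.

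Most *Dlk1* counts came from few cells. In cells thinned to 3000 UMIs, which left out 336 pubertal and 426 adult *Pdgfra*+ cells, a *Dlk1* UMI was found in 1.28% (1.12 to 1.45) of the pubertal and 0.671% (0.564 to 0.792) of the adult cells, and in *Thbs4* or *Bmp5* cells in 12.2% (10.2 to 14.5) and 2.59% (2.06 to 3.21). Without thinning the shares over all *Pdgfra*+ cells were 3.06% and 1.59%. The 77 pubertal and 47 adult *Pdgfra*+ cells with at least 5 *Dlk1* UMIs were 0.408% and 0.224% of all, yet held 47.3% and 48.8% of the *Dlk1* UMIs, and single cells reached 40 and 31 UMIs. At the limit, 20 pubertal and 12 adult cells had 5 UMIs and 19 and 17 cells had 4. Of these *Dlk1*-high cells, 61.0% (49.2 to 72.0) of the pubertal and 51.1% (36.1 to 65.9) of the adult ones carried *Thbs4* or *Bmp5*, against 4.01% and 14.2% of cells with no *Dlk1* UMI. With the *Dlk1*-high cells left out, the *Dlk1* ratio of the remaining *Pdgfra*+ cells was 0.544.

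The genes that led *Dlk1*-high cells were *Cxcl14*, a chemokine, *Tenm2*, a teneurin adhesion receptor, *Smoc2*, a matricellular protein, *Alkal2*, a ligand of the receptor ALK, *Apod*, a lipid-binding lipocalin, *Myoc*, *Mest*, *Grm8*, *Cpxm2* and *Abca8b*. *Tenm2* was at 68.1 CPM (52.6 to 86.9) in pubertal *Dlk1*-high cells against 1.74 CPM in cells without *Dlk1*, and at 72.9 (54.4 to 95.6) against 3.51 CPM in the adult. Its UMIs came from few cells, 10 of the 77 pubertal and 5 of the 47 adult *Dlk1*-high cells, whereas *Smoc2* was found in 71 and 44 and *Mest* in 38 and 28. *Mest*, an imprinted gene of another chromosome, was at 123 CPM (101 to 147) against 19.0, and 122 CPM (97.7 to 150) against 15.3. The cells also held *Meg3*, at 2077 CPM (1987 to 2171) against 1600 at puberty and 1710 CPM (1615 to 1809) against 803 in the adult. *Rtl1* was at 5.24 CPM (1.70 to 12.2) against 4.02 at puberty and 1.40 CPM (0.0355 to 7.81) against 1.80 in the adult, so a difference was not detectable at this depth. The 6 fibroblast genes summed to 33294 and 26033 CPM in these cells, near the 32214 and 27161 CPM of cells without *Dlk1*. Markers of other cell types were low but in part higher than in cells without *Dlk1*. The 5 Schwann markers summed to 53.5 against 27.1 CPM at puberty and 50.5 against 28.1 CPM in the adult, with 3 and 2 of them at 0. The 5 endothelial markers summed to 65.0 against 44.4 CPM and 18.2 against 21.6 CPM, with 3 at 0 in each library, and the 7 muscle markers to 3.15 against 2.78 CPM and 21.0 against 3.52 CPM. Their part in the *Dlk1* values was not tested. Adult *Dlk1*-high cells were deeper than adult cells without *Dlk1*, with medians of 14803 and 11233 UMIs. At puberty the medians were 11628 and 12170 UMIs. Adult *Meg3* was at 556 CPM in *Pdgfra*+ cells under 5000 UMIs and 969 CPM in those with 25000 or more. The part of depth in the *Meg3* excess of *Dlk1*-high cells was not tested.

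Across 12 sums of cells that do not overlap (cells meeting exactly 1 subset rule, and mural cells, in each library), the profile most like *Meg3* among 5375 genes was *Rian* (Pearson r = 0.980). It was followed by *Fbxl7* (0.953), *Fstl1* (0.942), *Lysmd3* (0.935) and *Has2* (0.934), while *Mirg* ranked 11 (0.909) and *B830012L14Rik* 26 (0.886). *Rtl1*, too low to be ranked, had r = 0.914, and *Dlk1* ranked 1314 (0.402). The profiles most like *Dlk1* were *Tenm2* (0.938), *C1qtnf3* (0.889), *Thbs4* (0.889), *Col8a1* (0.886) and *Spp1* (0.864), of which *Thbs4* defines a subset, and *Dio3*, too low to be ranked, had r = 0.784 with *Dlk1*. The 12 points come from 2 libraries and share depth and stage within each. The members were selected on the difference between these libraries, which is part of the profiles, so their r values are a description. In cells meeting *Thbs4* or *Bmp5* alone, *Dlk1* was at 149 CPM at puberty (261 cells) and 23.0 CPM in the adult (873 cells).

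Single cells showed the noncoding RNAs together. At 3000 UMIs per cell, *Meg3* was detected in 87.3% (86.9 to 87.8) of pubertal and 60.6% (59.9 to 61.2) of adult *Pdgfra*+ cells, 95.2% and 77.7% without thinning. *Rian* was detected in 68.7% (68.1 to 69.4) and 33.9% (33.2 to 34.5), *B830012L14Rik* in 43.0% (42.3 to 43.7) and 9.95% (9.54 to 10.4), and *Mirg* in 12.2% (11.7 to 12.7) and 3.20% (2.96 to 3.45). In mural cells, with median depths of 6334 and 6126 UMIs, a *Meg3* UMI was found in 24.2% (21.1 to 27.5) and 23.5% (19.3 to 28.2) after the same thinning, so the fibroblast shares exceed those of the other main cell type of the sort. Cells with none of the 4 RNAs made up 8.93% (8.52 to 9.35) of the pubertal and 34.7% (34.1 to 35.4) of the adult cells, and cells with all 4 made up 7.49% (7.11 to 7.87) and 0.729% (0.617 to 0.855). A count of 0 in a thinned cell does not show that the RNA is absent.

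**Figure D4:**
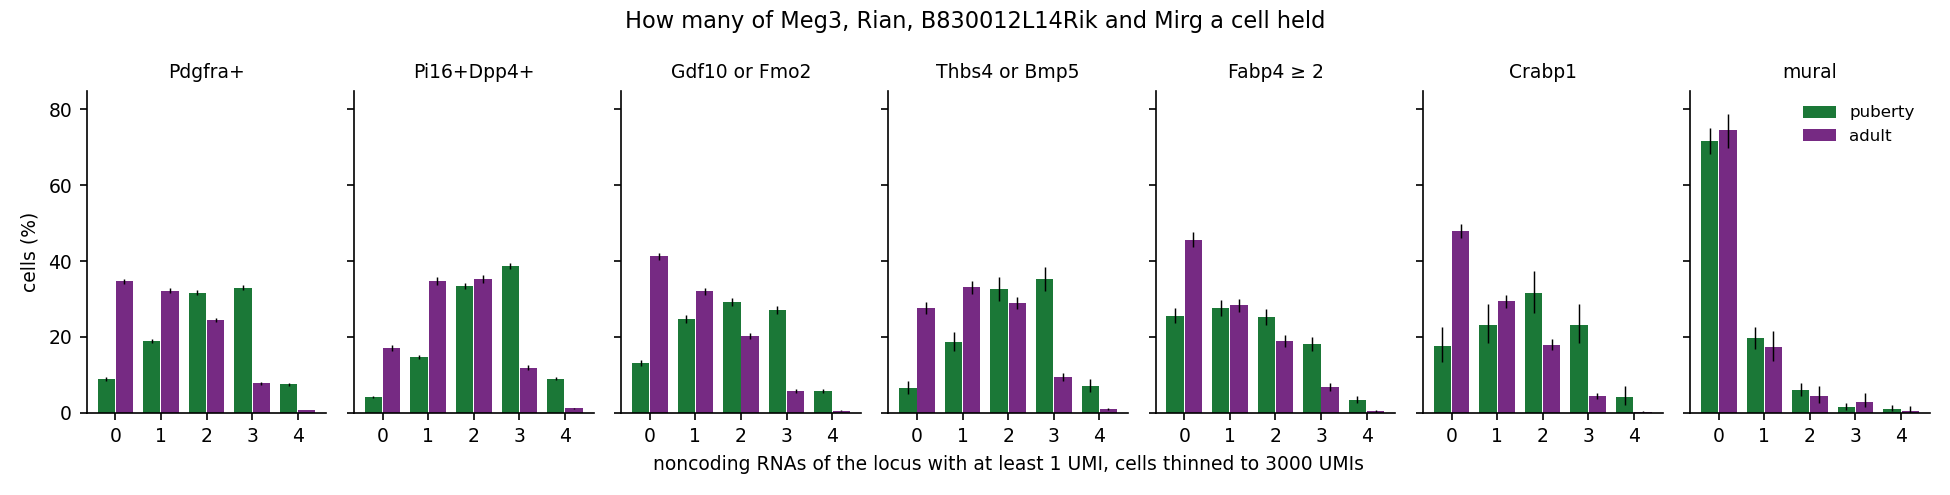
Share of cells (%) by how many of the 4 noncoding RNAs had a UMI after thinning to 3000 UMIs, per cell set, green for puberty and purple for the adult, with exact binomial 95% intervals. Pubertal *Pdgfra*+ cells peak at 3 RNAs (33.0%) and adult cells at 0 (34.7%), while over 70% of mural cells hold none at either stage.

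Given a *Meg3* UMI, *Rian* was found in 75.3% (74.6 to 76.0) of pubertal cells, against 23.4% (21.7 to 25.1) of cells without one. In the adult the shares were 49.3% (48.4 to 50.2) and 10.2% (9.56 to 10.9). *B830012L14Rik* accompanied *Meg3* in 47.7% (46.9 to 48.5) against 10.8% (9.60 to 12.2) at puberty and 15.0% (14.4 to 15.6) against 2.21% (1.90 to 2.55) in the adult. The rank correlation between *Meg3* and *Rian* was 0.638 and 0.555, over 18542 and 20573 thinned cells. Between *Meg3* and *Rtl1* it was 0.0854 and 0.0767, and between *Meg3* and *Dlk1* 0.0255 and 0.0580. *Rtl1* was detected in 1.11% and 0.535% of these cells and *Dlk1* in 1.28% and 0.671%. Such sparse counts hold the correlation low, so no lack of association is read from it. The cells differ in subset, which the correlations share.

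Among the coding genes, both *Rtl1* and *Dlk1* were found more often in *Pdgfra*+ cells with a *Meg3* UMI. *Rtl1* was found in 1.24% (1.08 to 1.42) of pubertal cells with a *Meg3* UMI and 0.171% (0.0465 to 0.436) without, and in 0.810% (0.661 to 0.984) and 0.111% (0.0508 to 0.211) in the adult. In cells with at least 6 *Meg3* UMIs the *Rtl1* count was 2.36 UMIs per 100 cells (1.99 to 2.78) at puberty, against 2.41 (1.84 to 3.09) in the adult, so in this group of cells no stage difference was detectable. Since strand use is unknown, such *Rtl1* UMIs and reads of the noncoding strand across *Rtl1* cannot be told apart. In the same group *Rian*, at 570 (564 to 576) and 371 (363 to 378) UMIs per 100 cells, and *B830012L14Rik*, at 169 (166 to 172) and 44.1 (41.6 to 46.8), were lower in the adult. The group has no upper limit and held 6136 pubertal and 2535 adult cells. The *Meg3* level within it was not matched between the stages. *Dlk1* was found in 1.36% (1.19 to 1.56) of pubertal cells with *Meg3* and 0.682% (0.390 to 1.11) without, and in 0.995% (0.828 to 1.19) and 0.173% (0.0944 to 0.289) in the adult. Within *Pi16*+*Dpp4*+ cells the *Dlk1* shares were 0.732% (0.592 to 0.895) and 0.705% (0.284 to 1.45) at puberty. In the adult they were 0.611% (0.441 to 0.826) and 0.207% (0.0564 to 0.529). Over all *Pdgfra*+ cells, *Dlk1* and *Rtl1* were found together in 5 pubertal cells and 1 adult cell, and *Dlk1* and *Dio3* in 0 and 2. *Dio3* was detected in 0.0593% (0.0296 to 0.106) and 0.0437% (0.0200 to 0.0830) of thinned cells. Without thinning, pubertal mural cells held 2 *Dio3* UMIs, both in 1 cell, 1.86-fold (0.219 to 7.07) the *Pdgfra*+ level, so a difference between these cell types was not detectable at this depth.

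**Figure D5:**
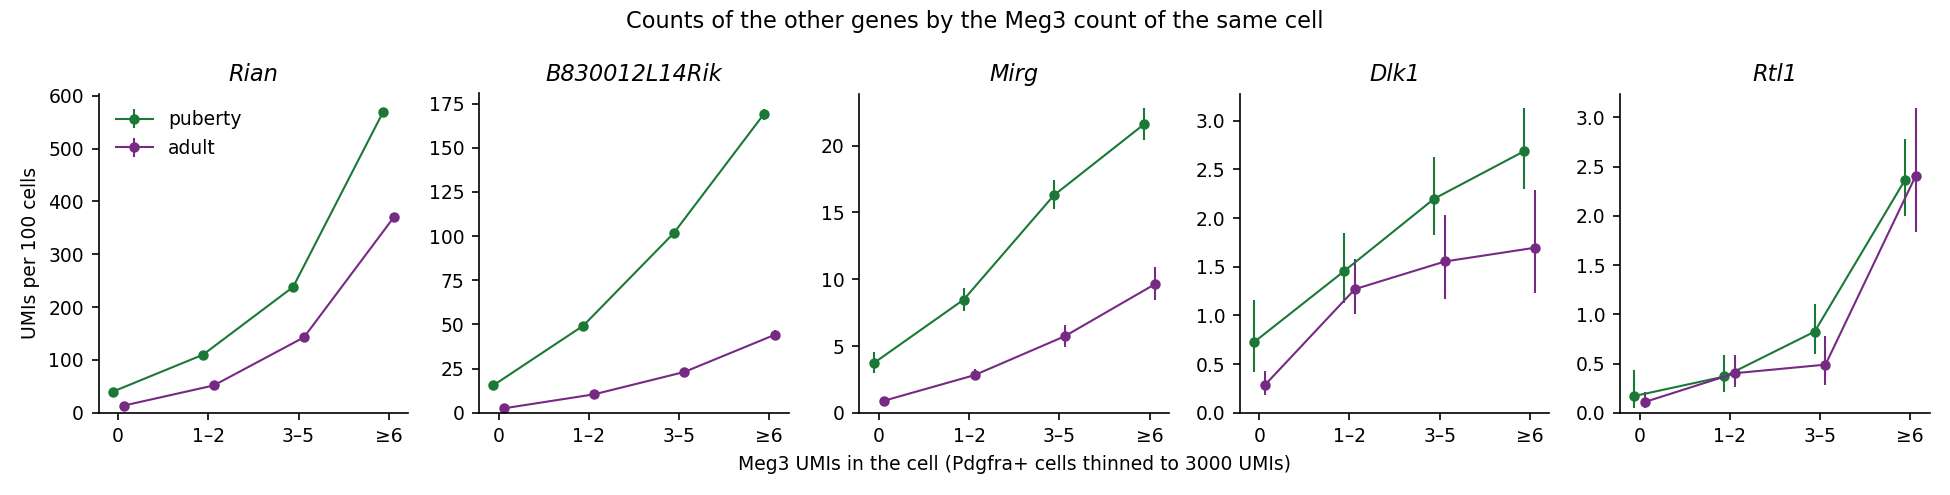
UMIs per 100 *Pdgfra*+ cells of 5 genes, grouped by the *Meg3* count of the same cell after thinning to 3000 UMIs, green for puberty and purple for the adult, with Poisson 95% intervals; each panel has its own linear axis. *Rian*, *B830012L14Rik* and *Mirg* are lower in the adult in each group of *Meg3* counts, and *Rtl1* reaches 2.36 and 2.41 UMIs per 100 cells at 6 or more *Meg3* UMIs.

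Mural cells, taken as *Pdgfra*-negative cells with *Myh11* or *Rgs5*, numbered 783 and 457 and had much lower noncoding levels than fibroblasts. *Meg3* was at 258 CPM (244 to 272) at puberty, 0.160-fold (0.152 to 0.169) the *Pdgfra*+ level, and at 193 CPM (177 to 209) in the adult, 0.237-fold (0.217 to 0.257). Of the 6 members with enough UMIs, 6 were at least 2-fold lower in mural than in *Pdgfra*+ cells at puberty, beside 23.5% of all genes, and 5 in the adult, beside 20.3%. UMIs of both cell sets were added for this minimum, so a gene could pass on *Pdgfra*+ UMIs alone. Pubertal mural cells held 6 *Dlk1*, 2 *Rtl1* and 27 *Mirg* UMIs, and adult mural cells 1 *Rtl1* and 13 *Mirg* UMIs. The counts of members thus rest in part on few mural UMIs. For adult *Rtl1* the interval of the mural over *Pdgfra*+ ratio (0.00467 to 1.04) spans no difference. *Dlk1* was the exception in the adult: 23 UMIs in 12 mural cells gave 7.84 CPM (4.97 to 11.8), 2.34-fold (1.48 to 3.54) the *Pdgfra*+ level, against 6 UMIs in 5 cells and 1.18 CPM (0.432 to 2.56) at puberty. The mural *Dlk1* ratio was thus 6.66 (2.64 to 20.0), opposite in direction to *Pdgfra*+ cells. No mural cell held more than 4 *Dlk1* UMIs. The mural sets differed in make-up between the stages. The 5 epithelial markers summed to 34.9 CPM in pubertal and 610 CPM in adult mural cells, against 3.16 and 1.12 CPM in *Pdgfra*+ cells. The part of these markers' cells in the mural values and ratios was not tested.

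The stage difference of the noncoding RNAs in mural cells depended on how these cells were picked. By the rule the ratio was 0.748 (0.677 to 0.826) for *Meg3*, 0.388 (0.325 to 0.461) for *Rian* and 0.248 (0.165 to 0.363) for *B830012L14Rik*, and 2 of 3 members with enough UMIs were at least 2-fold lower in the adult (1.93% of all genes). However, 75 of the pubertal cells had fewer than 3 of the 7 pericyte and smooth muscle markers and carried fibroblast markers at 28849 CPM and *Meg3* at 1157 CPM. The corresponding 70 adult cells had 7141 and 277 CPM. In the 720 pubertal and 408 adult *Pdgfra*-negative cells with at least 3 of those markers, a set added after the data were seen, *Meg3* was at 189 and 216 CPM, a ratio of 1.15 (1.03 to 1.28), with 0.852 (0.722 to 1.004) for *Rian* and 1.09 (0.782 to 1.51) for *B830012L14Rik*. The *Dlk1* ratio was 6.01 (2.49 to 16.6) in this set, on 7 and 23 UMIs.

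The other cell types of the sort were few, and were read only by sums over cells with at least 3 markers of a list. Skeletal muscle or satellite-like cells, 43 pubertal and 94 adult, had *Meg3* at 1046 CPM (930 to 1173) and 819 CPM (744 to 899), and *Rian* at 670 CPM (577 to 773) and 253 CPM (212 to 299). They had *B830012L14Rik* at 193 CPM (145 to 252) and 108 CPM (81.9 to 140), and *Mirg* at 60.9 and 16.7 CPM. The adult *B830012L14Rik* level was above the 67.2 CPM of *Pi16*+*Dpp4*+ cells, so a high level was not confined to fibroblasts. Schwann-like cells had *Meg3* at 235 CPM (176 to 307) in 60 pubertal cells and 29.7 CPM (14.8 to 53.1) in 52 adult cells. The 58 adult endothelial-like cells had 3 *Meg3* UMIs in all and the 32 adult epithelial-like cells 19, with 0 UMIs of *Dlk1* in either.

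Over all genes with enough UMIs, 19.5% were at least 1.5-fold higher in the adult and 8.92% at least 1.5-fold lower. Of 11 neighbours of the locus (*Dio3os* among them), 10 had at least 100 UMIs in *Pdgfra*+ cells, of which 2 were at least 1.5-fold higher in the adult and 0 lower, with a median log2 ratio of 0.39 against 0.17 over all genes. *Begain*, the gene before *Dlk1*, was at 1.47 CPM (1.32 to 1.63) and 4.94 CPM (4.67 to 5.23), a ratio of 3.36 (2.98 to 3.80), and *Slc25a47*, a mitochondrial carrier, had a ratio of 1.61 (1.51 to 1.71). Of 10 other long noncoding RNAs, *Miat* was lower (0.391, 0.343 to 0.444), *Snhg11* higher (1.89, 1.78 to 2.01) and 8 lay within 1.5-fold, among them *Neat1* (0.987), *Xist* (1.24) and the imprinted *Kcnq1ot1* (1.04), for a median of 0.22.

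Genes of the pathways that the coding members act in differed in both directions. Of 12 thyroid hormone genes with enough UMIs, *Dio2*, which activates the hormone that *Dio3* inactivates, had a ratio of 1.89 (1.73 to 2.07) and the receptor coactivator *Ncoa1* 1.60 (1.58 to 1.62), while the transporters *Slc16a10* and *Slco1c1* had 0.539 (0.529 to 0.549) and 0.360 (0.341 to 0.379). The other 8 lay within 1.5-fold (median log2 ratio of the list 0.26), and *Dio1* had 0 UMIs. Of 14 Notch pathway genes, related to *Dlk1* by its resemblance to Notch ligands, 5 were higher and 2 lower (median 0.31). The receptor *Notch1* had a ratio of 3.34 (3.13 to 3.57), the Notch-modifying enzyme *Lfng* 5.08 (4.07 to 6.40), the targets *Heyl* and *Hey1* 1.81 (1.63 to 2.01) and 1.57 (1.32 to 1.86), and the coactivator *Maml2* 1.501 (1.49 to 1.52). *Sox9* was lower at 0.553 (0.529 to 0.578), as was *Hey2* at 0.567 (0.419 to 0.764). Of 14 genes that maintain imprints or act in Polycomb and DNA methylation, the zinc finger gene *Zfp57* (2.13, 1.69 to 2.70), *Aff3* (1.68, 1.64 to 1.71) and *Jarid2* (1.56, 1.54 to 1.58) were higher, 0 were lower by 1.5-fold, and the median was 0.31.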

How the data were processed

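The deposited values are unnormalized UMI counts for each gene in each barcode, and the file headers name Cell Ranger 8.0.1 as the authors' software. The labels name mm10, but 1735 of the 33696 gene identifiers are not in GENCODE M21, so coordinates were taken from GENCODE M21 (GRCm38) and may differ from the annotation counted. The annotation, the use of introns and strand are not given in the sources used here, and the study's methods name another kit and Cell Ranger version. Each library held 255274670 (puberty) or 259549498 (adult) UMIs. Genes and lists were chosen with earlier results of these data known. Counts were summed over cells and divided to CPM, with exact Poisson intervals, and shares have exact Clopper-Pearson intervals. Ratios have conditional binomial intervals. All are 95% and cover counting error only. Shares were taken after thinning each cell to 3000 UMIs at random, and a limit for 0 is 3 counts. No doublets were removed in the reported values. Named genes were the members, listed genes at least 1.5-fold apart, the 5 profiles nearest *Meg3* and *Dlk1*, by log2(CPM + 5) among genes of at least 50 CPM in 1 sum, and the 10 genes with the highest CPM ratio (5 CPM added) in *Dlk1*-high cells. The functions were tested on simulated data. Alternatives used Scrublet in scanpy 1.11.5 and TMM factors of edgeR in R 4.3.3.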

Additional observations from a re-analysis of the deposited data

Results flagged for a closer look

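*Dlk1* went in opposite directions in the 2 main cell types between the stages. The adult over puberty ratio was 6.66 (2.64 to 20.0) in mural cells and 0.560 (0.513 to 0.610) in *Pdgfra*+ cells. The difference between the cell types was not tested, since there was 1 library per stage. Epithelial markers also differed between the mural sets, at 34.9 CPM at puberty and 610 CPM in the adult. Without the cell with the most *Dlk1* UMIs in each library the mural ratio was 8.25, on 4 pubertal and 19 adult UMIs.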

How the results depend on the processing

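No paired analysis was possible because both libraries carry the same single replicate number and each stage has 1 library. All ratios in *Pdgfra*+ cells were under 1 in each alternative run. *Dlk1* (0.560) was 0.502 with TMM scaling, 0.4996 as the mean of each cell's CPM, 0.257 with equal weight for the 5 subsets and 0.413 with the adult weighted to the pubertal subset mix. *Meg3* (0.507) was 0.49995 without likely doublets, 0.496 in cells of 5000 to 20000 UMIs, 0.454, 0.481, 0.551 and 0.639 in the same order as for *Dlk1*. TMM shifted each log2 ratio by -0.16. The ratio of *Meg3*-positive shares (0.693) was 0.816 without thinning, 0.758 at 5000 UMIs and 0.557 with at least 2 UMIs. Members at least 2-fold lower numbered between 4 and 6. *Rtl1* (0.457) left that count and *Dlk1* joined it with equal subset weight (0.612 for *Rtl1*) and with the pubertal mix (0.573), and *Meg3* joined it without likely doublets, in cells of 5000 to 20000 UMIs, with TMM scaling and as the mean of each cell's CPM, where *Dlk1* joined too. Mural *Meg3*, *B830012L14Rik* and *Mirg* turned to 1.15, 1.09 and 1.13 with at least 3 mural markers. The weighting to the subset mix, the mural set by 3 markers, and leaving out *Dlk1*-high cells, the top mural cell or shared barcodes were added after the data were seen. The causes of these moves were not tested. Neither spread between mice nor a stage effect apart from the library can be read from these data, and *Dio3* and *Rtl1* in small subsets are limited by counts.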
